A study of Homo sapiens with 8 samples.

Results

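The genes described here encode the subunits of the proteasome, the chaperones that assemble it and the factors that open or block it. They were taken by symbol, as all genes named PSMA to PSMG with a number, together with POMP, and 46 of the 12715 genes in the tables of the study matched. All 46 were listed in both lines and all 46 passed the filter on low values. They comprise 7 subunits of the 20S alpha ring, 7 constitutive subunits and 1 immunoproteasome subunit of the beta ring, 6 subunits of the 19S ATPase ring, 3 further subunits of the 19S base and 8 of the lid. The others are 3 chaperones of the 19S particle, 5 chaperones of the 20S particle, 5 activators or inhibitors, and PSMC3IP. PSMC3IP matched by its symbol only, since its protein acts in meiotic recombination and is no part of the proteasome. PSMA8, PSMB8, PSMB9 and PSMB11 were not analysed here.

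RNA was measured by poly(A)-selected sequencing in CAL-62 and BCPAP, established human thyroid carcinoma cell lines. CAL-62 cells treated with THZ1 at 100 nM for 6 h, CAL-62 cells given the vehicle DMSO, BCPAP cells treated with THZ1 at the same dose and time, and BCPAP cells given DMSO made 4 groups of 2 libraries each. THZ1 is a covalent inhibitor of CDK7, a kinase of the general transcription machinery, and also binds the related kinases CDK12 and CDK13. The labels call both lines anaplastic, although BCPAP is commonly described as a papillary carcinoma line. Each line had its own medium and amount of serum, and an effect of the medium cannot be told apart from one of the line. No genotype is given, and nothing states that the replicates were separate cultures. The p-values therefore reflect the spread among these libraries alone, and that spread may be technical.

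The proteasome degrades proteins tagged with ubiquitin. Its 20S core is a barrel of alpha and beta rings whose proteolytic sites sit inside, and the 19S particle at its ends binds the tagged protein, removes the ubiquitin, and unfolds and threads the chain with its ATPase ring. Subunit genes are transcribed together, in mammals partly through the transcription factor NRF1 (gene NFE2L1), and proteasome inhibitors are known to be toxic to many cancer cells.

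Each library held between 16682281 and 19989511 reads in listed genes, and the median gene had 399 to 730 reads. The 46 genes took 0.860% and 0.911% of those reads in the CAL-62 THZ1 libraries, against 0.718% and 0.723% in the CAL-62 DMSO libraries. In BCPAP they took 0.622% and 0.715% after THZ1, against 0.611% in each DMSO library. The share of mitochondrially encoded genes was 10.3% and 5.45% of reads in CAL-62 THZ1 libraries, against 6.26% and 3.74% with DMSO, and 5.07% and 3.38% in BCPAP THZ1 libraries, against 4.74% and 2.69% with DMSO. The part of that difference in the results below was not tested. Of the thyroid markers looked for, CAL-62 listed PAX8 alone and BCPAP listed PAX8, NKX2-1 and FOXE1, while TG, TSHR and SLC5A5 were not analysed here. PAX8, a thyroid transcription factor, had values of 5.20 and 29.8 in CAL-62 THZ1 libraries, against 91.1 and 117 with DMSO, and 30.8 and 42.5 in BCPAP THZ1 libraries, against 57.0 and 82.5 with DMSO. Of 5 epithelial markers, 4 were listed in CAL-62 (KRT8, KRT18, KRT19 and EPCAM) and 2 in BCPAP (KRT8 and KRT18). Their summed value was 1651 and 1776 in CAL-62 THZ1 libraries, against 895 and 924 with DMSO, and 532 and 906 in BCPAP THZ1 libraries, against 465 and 604 with DMSO. PAX8 thus lay lower after THZ1 in both lines, and the epithelial sum lay higher in CAL-62 and overlapped in BCPAP; the part of these differences in the results was not tested. None of 8 blood and endothelial markers was listed in either line. COL1A1, the 1 fibroblast marker of 5 that was listed, had values of 62.3 and 32.0 in CAL-62 THZ1 libraries, against 39.8 and 31.0 with DMSO, and 6.48 and 7.78 in BCPAP THZ1 libraries, against 6.08 and 6.52 with DMSO.

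Upstream sequences are shown for 6 members whose fitted changes in CAL-62 lie at the ends of the range, because most genes of this family had positive changes in that line. PSME2, POMP, PSMD2, PSMD8 and PSMB3 had the 5 largest positive changes among the members with an entry in the table of promoters, and PSMD5 had the largest negative change. Each run holds the 250 bases before the gene's annotated start, 5′ to 3′ on the strand of the gene, from RefSeq on GRCh38.p14. Capitals mark CCAAT, the letters bound by the factor NF-Y, and TGACNNNGC, the core of the antioxidant response element to which NRF1 binds, on either strand.
PSME2: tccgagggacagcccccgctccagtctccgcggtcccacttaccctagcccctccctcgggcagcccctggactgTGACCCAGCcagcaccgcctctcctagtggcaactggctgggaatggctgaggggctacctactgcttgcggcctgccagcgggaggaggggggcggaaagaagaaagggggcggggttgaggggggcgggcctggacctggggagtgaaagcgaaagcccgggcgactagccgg
POMP: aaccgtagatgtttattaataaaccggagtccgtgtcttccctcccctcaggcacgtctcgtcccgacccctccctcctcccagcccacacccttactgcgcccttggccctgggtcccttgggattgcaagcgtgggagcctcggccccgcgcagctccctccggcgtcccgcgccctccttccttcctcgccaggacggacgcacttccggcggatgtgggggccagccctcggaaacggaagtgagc
PSMD2: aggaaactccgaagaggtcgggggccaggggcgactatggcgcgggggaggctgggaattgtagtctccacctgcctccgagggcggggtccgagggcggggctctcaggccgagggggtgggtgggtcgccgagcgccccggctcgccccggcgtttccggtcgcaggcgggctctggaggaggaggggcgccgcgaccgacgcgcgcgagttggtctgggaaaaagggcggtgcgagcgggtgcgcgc
PSMD8: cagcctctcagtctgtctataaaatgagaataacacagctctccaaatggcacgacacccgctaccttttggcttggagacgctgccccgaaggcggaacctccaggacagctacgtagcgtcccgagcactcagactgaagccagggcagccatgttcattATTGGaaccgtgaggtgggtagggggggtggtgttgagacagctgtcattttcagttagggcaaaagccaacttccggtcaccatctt
PSMB3: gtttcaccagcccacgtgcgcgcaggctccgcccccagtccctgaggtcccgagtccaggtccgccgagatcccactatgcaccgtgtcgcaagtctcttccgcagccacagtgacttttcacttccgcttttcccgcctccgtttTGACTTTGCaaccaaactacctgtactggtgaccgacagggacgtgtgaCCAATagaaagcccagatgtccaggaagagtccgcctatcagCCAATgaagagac
PSMD5: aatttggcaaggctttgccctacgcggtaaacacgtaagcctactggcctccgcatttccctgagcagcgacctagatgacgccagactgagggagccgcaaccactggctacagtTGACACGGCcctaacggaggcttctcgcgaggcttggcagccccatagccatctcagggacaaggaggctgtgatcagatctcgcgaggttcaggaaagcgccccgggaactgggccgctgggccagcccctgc
The windows are chr14:24146611-24146860 (minus strand) for PSME2, chr13:28658880-28659129 (plus strand) for POMP, chr3:184298991-184299240 (plus strand) for PSMD2, chr19:38374321-38374570 (plus strand) for PSMD8, chr17:38752491-38752740 (plus strand) for PSMB3 and chr9:120842923-120843172 (minus strand) for PSMD5. PSMB3 held 2 copies of CCAAT and 1 of TGACNNNGC, PSMD8 held 1 CCAAT as ATTGG, and PSME2 and PSMD5 each held 1 TGACNNNGC. No letters of POMP or PSMD2 matched in this window, and no match overlapped another in the 6 runs. Among the 40 members with a promoter entry, 17 (42.5%) held CCAAT, against 35.4% of 8497 genes of the tables and 33.0% of all 27305 promoters. TGACNNNGC was found in 10 of the 40 (25%), against 12.0% of the genes of the tables and 11.0% of all promoters. Among the 26 members that encode a constitutive 20S subunit or a 19S subunit, 13 (50%) held CCAAT and 3 (11.5%) held TGACNNNGC. The immunoproteasome subunit PSMB10, not among these 26, held neither. PSMA7, PSMB1, PSMB6, PSMB7, PSMD4 and PSMG3 were not analysed here for motifs.

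Values below are RPKM-type values, reads scaled to gene length and to a library total. A change is the difference of THZ1 and DMSO means in log2(value + 1), THZ1 minus DMSO, with the standard error (SE) of the fit. Each adjusted p comes from limma, adjusted by Benjamini-Hochberg over all genes tested, and calls were made where it was under 0.05.

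In CAL-62, 3 proteasome genes were called higher after THZ1 and none lower. These were PSMB1, a structural subunit of the beta ring, POMP, the maturation protein that guides beta subunits onto the alpha ring, and PSME2, a subunit of the interferon-inducible activator PA28. Their means after THZ1 were 1.93 (PSMB1), 1.95 (POMP) and 1.96 (PSME2) times those with DMSO. Over all genes tested, 66 of 11362 (0.581%) were called higher, 459 (4.04%) lower and 525 (4.62%) in either direction. With the sum of reads, ribosomal protein genes or mitochondrially encoded genes as the scale, the calls over all genes were 10 higher and 1496 lower, 4 higher and 3318 lower, and 3 higher and 471 lower. The change was positive in 42 of the 46 members and lay between -0.61 and 0.95, with a median of 0.63 over members and of 0.031 over all genes tested. Of all genes tested, 51.8% had a positive change. The members' median value was 54.0 and 51.4 in CAL-62 DMSO libraries, against 9.861 and 9.815 over all genes listed there. With a filter at a mean of 5, the median change over all genes was 0.18. The part of the members' higher level in this contrast was not tested. In 36 members both THZ1 libraries lay above both DMSO libraries, which held for 30.1% of all genes, and in 1 member, PSMD5, both lay below, which held for 27.4%. An unadjusted p under 0.05 was reached by 28 members, each with a positive change, and by 30.1% of all genes in either direction. In bulk RNA, fewer cells with a transcript and less of it per cell cannot be told apart.

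**Figure D1:**
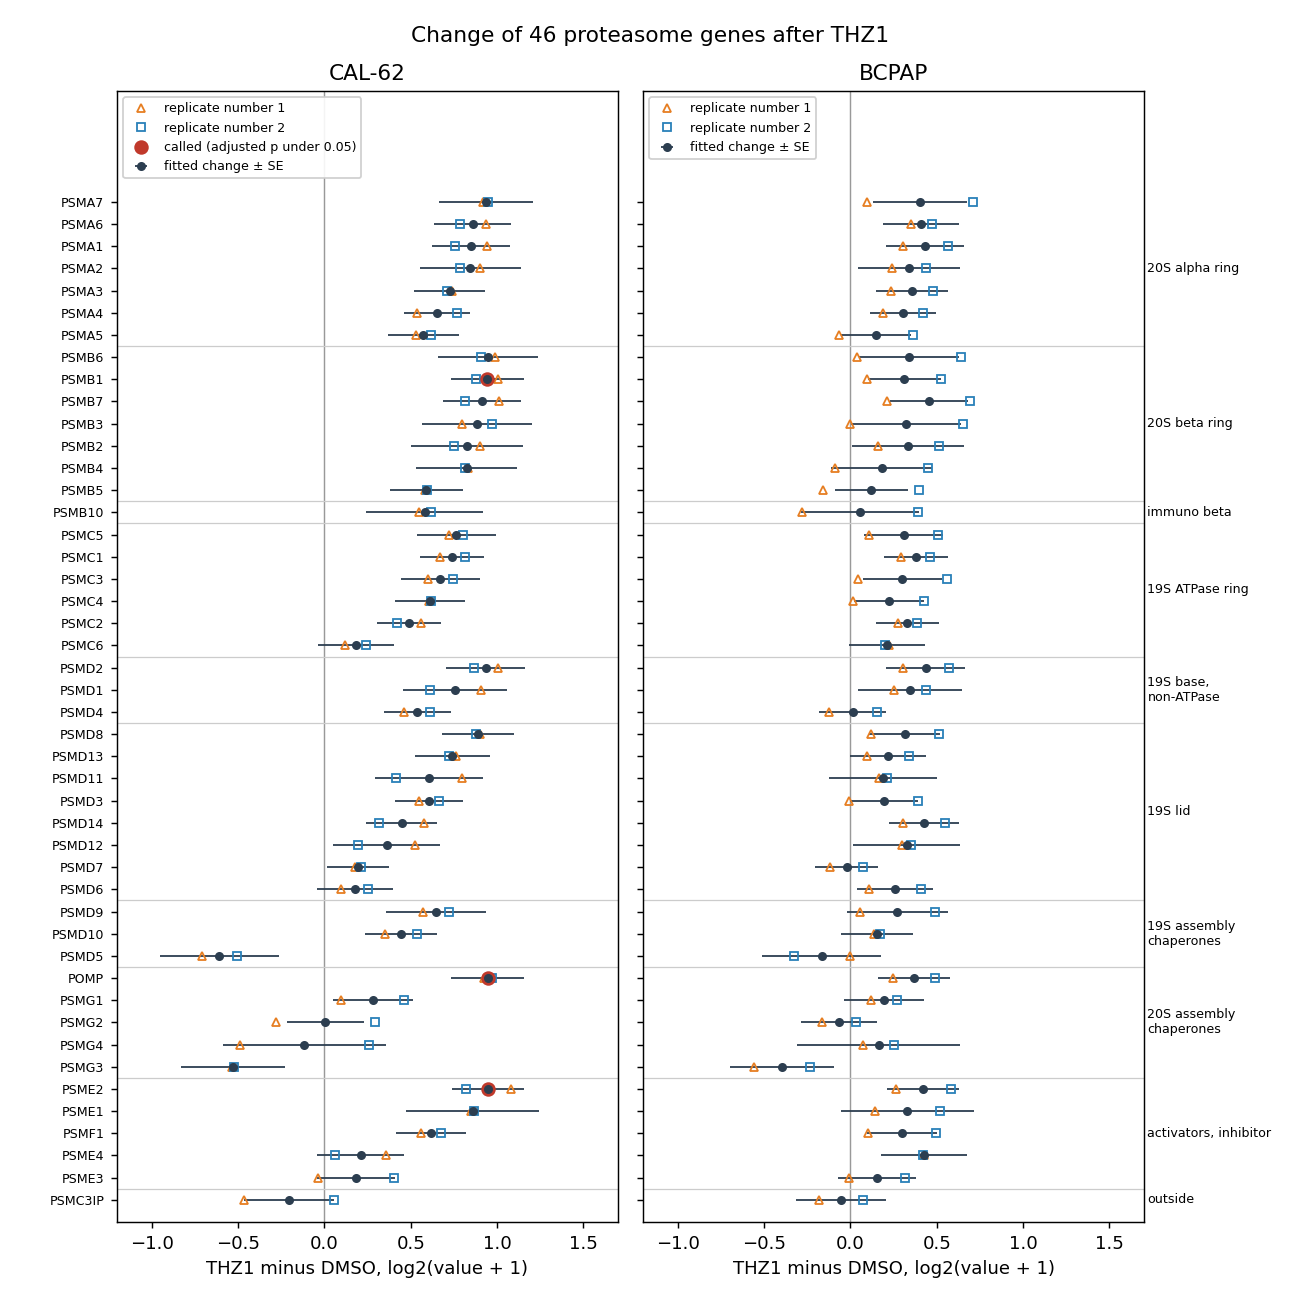
Change of each of the 46 genes after THZ1 in CAL-62 (left) and BCPAP (right), in log2(value + 1), ordered by role. Dark points with bars show the fitted change ± SE, open symbols the difference between the libraries of the same number, and red points the 3 called genes, all in CAL-62; most points lie right of 0 in both lines and further right in CAL-62.

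The direction of the family depended on the scaling: the median member change in CAL-62 was 0.63 as deposited, 0.60 with median-of-ratios scaling and 0.21 with scaling to the sum of reads, but -0.30 relative to ribosomal protein genes and -0.39 relative to mitochondrially encoded genes. Those last 2 scalings moved the median of all genes by -0.81 and -0.88, and under each of them all 46 members had a negative change in CAL-62. Set against that median, the median member stood 0.60 higher as deposited and 0.45 to 0.61 higher over all scalings, filters and pseudocounts tried. In BCPAP the median member change was 0.30 as deposited, 0.26 with median-of-ratios scaling, 0.12 with the sum of reads and 0.064 relative to ribosomal protein genes, but -0.092 relative to mitochondrially encoded genes. It stood 0.24 above the median of all genes as deposited, and 0.18 to 0.24 above it over the same alternatives.

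**Figure D2:**
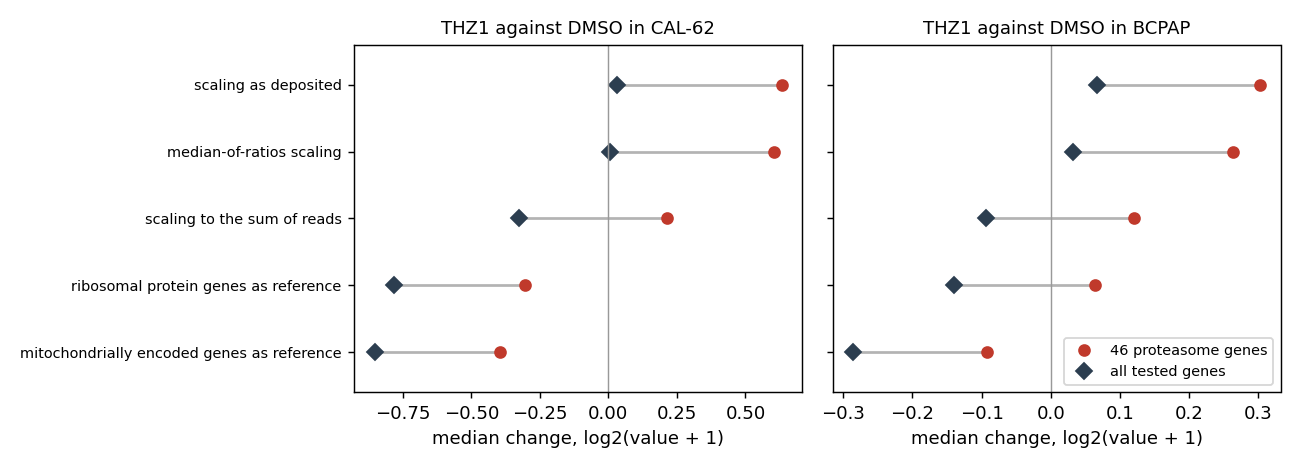
Median change after THZ1 in log2(value + 1) of the 46 proteasome genes (red points) and of all genes tested (dark diamonds) under 5 scalings, in CAL-62 (left) and BCPAP (right). The sign of the proteasome median turns with the scaling, from 0.63 to -0.39 in CAL-62, while the red point stays right of the diamond in each row.

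The 3 calls in CAL-62 depended on the fit. None was made without any 1 of the CAL-62 DMSO, CAL-62 THZ1 or BCPAP DMSO libraries, with the 4 CAL-62 libraries alone, with a filter at a mean of 5, with the sum of reads or with the mitochondrial scaling, while 11 members were called higher without either BCPAP THZ1 library, where 2.55% and 2.61% of all genes were called higher. Scaling to ribosomal protein genes called 3 other members lower, namely PSMC3IP, PSMD5 and PSMG3, which is 6.52% of members against 29% of all genes called lower. limma-voom on recovered reads called 6 members higher (13%) and none lower. Over the 10653 genes it tested, it called 165 (1.55%) higher and 578 (5.43%) lower. With the replicate number as a block, many more members and genes were called in CAL-62, as given in the last paragraph.

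In CAL-62 the core particle had the highest medians of the groups by role. All 14 constitutive subunits of the alpha and beta rings had both CAL-62 THZ1 libraries above both DMSO libraries, which held for 30.1% of all genes. In the alpha ring, whose N-termini form the gate of the barrel, changes lay between 0.57 (PSMA5) and 0.93 (PSMA7) with a median of 0.85. In the constitutive beta ring they lay between 0.59 (PSMB5) and 0.95 (PSMB6) with a median of 0.88. The summed value of these 14 genes was 3018 and 2848 in CAL-62 THZ1 libraries, against 1646 and 1580 with DMSO, and 1556 and 2224 in BCPAP THZ1 libraries, against 1435 and 1510 with DMSO.

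PSMB1 had values of 193 and 175 in CAL-62 THZ1 libraries, against 95.4 and 95.0 with DMSO. In BCPAP it had 174 and 235 after THZ1, against 163 in each DMSO library. Both THZ1 libraries thus lay above both DMSO libraries in each line, with a wide gap in CAL-62. The change was 0.94 in CAL-62 (SE 0.21, limma adjusted p = 0.0492) and 0.31 in BCPAP (SE 0.21, limma adjusted p = 0.932).

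PSMA1, a subunit of the alpha ring, was among the 4 largest positive changes in BCPAP. It had 199.7 and 144 in CAL-62 THZ1 libraries, against 103 and 85.1 with DMSO, and 60.5 and 63.2 in BCPAP THZ1 libraries, against 48.8 and 42.5 with DMSO. Its groups were separated in both lines, with changes of 0.85 (SE 0.23, limma adjusted p = 0.0671) and 0.43 (SE 0.23, limma adjusted p = 0.932).

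The catalytic subunits PSMB5, PSMB6 and PSMB7, which cleave after hydrophobic, acidic and basic residues, were not called. PSMB5, the main target of proteasome inhibitors in the clinic, had values of 128 and 115 in CAL-62 THZ1 libraries, against 85.0 and 75.8 with DMSO, and 81.9 and 108 in BCPAP THZ1 libraries, against 91.4 and 81.5 with DMSO. The groups did not overlap in CAL-62 and did in BCPAP, and the changes were 0.59 (SE 0.21, limma adjusted p = 0.116) and 0.12 (SE 0.21, limma adjusted p = 0.954). PSMB6 had values of 342 and 269 in CAL-62 THZ1 libraries, against 172 and 143 with DMSO, and 84.5 and 145 in BCPAP THZ1 libraries, against 82.2 and 92.7 with DMSO. It too was separated in CAL-62 alone, with changes of 0.95 (SE 0.29, limma adjusted p = 0.0833) and 0.34 (SE 0.29, limma adjusted p = 0.932). PSMB7 had values of 305 and 237 in CAL-62 THZ1 libraries, against 151 and 134 with DMSO, and 124 and 136 in BCPAP THZ1 libraries, against 106 and 83.4 with DMSO. Its groups were separated in both lines, and its change was 0.91 in CAL-62 (SE 0.22, limma adjusted p = 0.0583) and 0.45 in BCPAP (SE 0.22, limma adjusted p = 0.932), the largest BCPAP change of any member.

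PSMB10 takes the place of PSMB7 in the immunoproteasome, the form that interferon induces for antigen processing. It was the member with the lowest value in CAL-62 DMSO libraries. PSMB10 had values of 11.3 in each CAL-62 THZ1 library, against 7.42 and 7.04 with DMSO, and 10.9 and 23.5 in BCPAP THZ1 libraries, against 13.4 and 17.7 with DMSO. The groups were separated in CAL-62 and overlapped in BCPAP, where library 1 lay below and library 2 above both DMSO libraries. The change was 0.58 in CAL-62 (SE 0.34, limma adjusted p = 0.284) and 0.057 in BCPAP (SE 0.34, limma adjusted p = 0.985). Within a library, the value of PSMB10 was 3.71% and 4.78% of that of PSMB7 in CAL-62 THZ1 libraries, against 4.92% and 5.25% with DMSO, and 8.80% and 17.3% in BCPAP THZ1 libraries, against 12.6% and 21.2% with DMSO. The percentages were lower after THZ1 without overlap in CAL-62 and with overlap in BCPAP, and 2 libraries a group allow no exact p under 0.05. The nearest CAL-62 percentages were 4.78% with THZ1 and 4.92% with DMSO. PSMB10 had as few as 157 reads in a library, and the counting error of the ratio was not assessed.

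**Figure D3:**
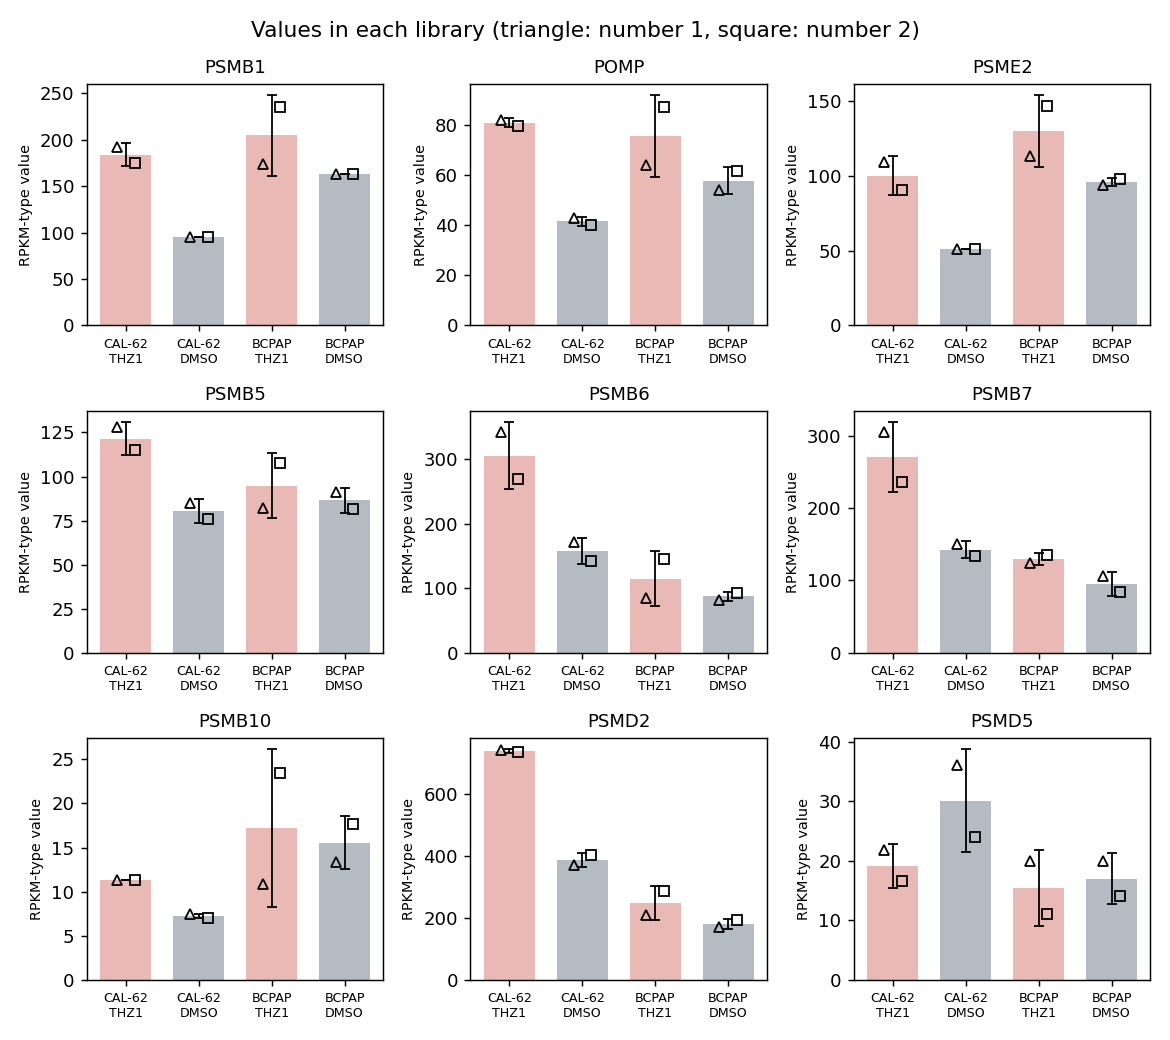
RPKM-type values of 9 members in each library, with bars for the mean of 2 libraries, error bars for the SD, triangles for library 1 and squares for library 2; THZ1 stands left of DMSO in each line. PSMB1 had 193 and 175 in CAL-62 THZ1 libraries against 95.4 and 95.0 with DMSO, whereas PSMD5 lay lower after THZ1 in CAL-62.

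In CAL-62, genes of the 19S particle had smaller median changes than those of the core, and no test of that difference was run. In the ATPase ring, 5 of 6 members had both CAL-62 THZ1 libraries above both DMSO libraries, with changes from 0.18 (PSMC6) to 0.76 (PSMC5) and a median of 0.64. The 3 further base subunits, the scaffolds PSMD1 and PSMD2 and the ubiquitin receptor PSMD4, were all separated in CAL-62, with a median change of 0.76. In the lid 6 of 8 members were separated, with changes from 0.18 (PSMD6) to 0.89 (PSMD8) and a median of 0.53. Over all genes, 30.1% had both CAL-62 THZ1 libraries above both DMSO libraries.

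PSMD2, the scaffold that docks ubiquitin shuttle proteins, had the highest value of any member in CAL-62. It had 740.3 and 733 in CAL-62 THZ1 libraries, against 369 and 401 with DMSO, and 209 and 285 in BCPAP THZ1 libraries, against 169 and 192 with DMSO. Both THZ1 libraries lay above both DMSO libraries in each line, and the changes of 0.94 (SE 0.23, limma adjusted p = 0.0578) in CAL-62 and 0.44 (SE 0.23, limma adjusted p = 0.932) in BCPAP were not called. PSMD14, the metalloprotease of the lid that removes ubiquitin chains from substrates, had 61.7 and 60.2 in CAL-62 THZ1 libraries, against 41.0 and 48.1 with DMSO, and 91.1 and 116 in BCPAP THZ1 libraries, against 73.4 and 79.3 with DMSO. It was separated in both lines by nearly the same amount, with changes of 0.45 (SE 0.20, limma adjusted p = 0.184) and 0.43 (SE 0.20, limma adjusted p = 0.932).

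The assembly chaperones, which bind immature particles, did not share 1 direction. Of the 4 negative changes in CAL-62, 3 were in this class (PSMD5, PSMG3 and PSMG4) and the fourth was PSMC3IP. The 5 chaperones of the 20S particle had a median change of 0.0069 in CAL-62 and 0.16 in BCPAP, and the 3 of the 19S particle had medians of 0.44 and 0.16. PSMD9 and PSMD10, chaperones of the ATPase ring, had positive changes of 0.65 and 0.44 in CAL-62, with both groups separated.

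POMP had values of 82.1 and 79.6 in CAL-62 THZ1 libraries, against 42.9 and 40.2 with DMSO. In BCPAP it had 64.1 and 87.1 after THZ1, against 53.9 and 61.7 with DMSO. Both THZ1 libraries lay above both DMSO libraries in each line. The change was 0.95 in CAL-62 (SE 0.21, limma adjusted p = 0.0481) and 0.37 in BCPAP (SE 0.21, limma adjusted p = 0.932).

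PSMD5, a chaperone that holds the 19S base before it docks on the core, had 21.7 and 16.5 in CAL-62 THZ1 libraries, against 36.1 and 23.9 with DMSO, and 19.9 and 11.0 in BCPAP THZ1 libraries, against 20.0 and 14.0 with DMSO. It was the only member with both THZ1 libraries below both DMSO libraries in CAL-62, and its groups overlapped in BCPAP. Its changes of -0.61 in CAL-62 (SE 0.35, limma adjusted p = 0.272) and -0.17 in BCPAP (SE 0.35, limma adjusted p = 0.961) were not called. PSMG3 and PSMG4 form 1 of the chaperone pairs of the alpha ring. PSMG3 had 10.2 and 16.0 in CAL-62 THZ1 libraries, against 15.2 and 23.5 with DMSO, and 10.8 and 14.7 in BCPAP THZ1 libraries, against 16.4 and 17.4 with DMSO. It was the only member with both THZ1 libraries below both DMSO libraries in BCPAP, with changes of -0.53 in CAL-62 (SE 0.30, limma adjusted p = 0.275) and -0.39 in BCPAP (SE 0.30, limma adjusted p = 0.932). Its partner PSMG4 had 10.3 and 21.4 in CAL-62 THZ1 libraries, against 14.9 and 17.7 with DMSO, and 9.34 and 20.5 in BCPAP THZ1 libraries, against 8.82 and 17.0 with DMSO. PSMG4 differed more between the libraries of a group than between groups in both lines, with changes of -0.12 and 0.16 (SE 0.47 each).

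PSMG2, which pairs with PSMG1 on the alpha ring, had 22.9 and 32.9 in CAL-62 THZ1 libraries, against 28.0 and 26.7 with DMSO, and 30.2 and 31.1 in BCPAP THZ1 libraries, against 34.0 and 30.3 with DMSO. Its groups overlapped in both lines, with changes of 0.0069 and -0.065 (SE 0.22 each). PSMC3IP, outside the complex, had 6.90 and 11.0 in CAL-62 THZ1 libraries, against 9.92 and 10.5 with DMSO, and 7.92 and 9.96 in BCPAP THZ1 libraries, against 9.10 and 9.43 with DMSO. It overlapped in both lines too, with changes of -0.21 and -0.054 (SE 0.26 each).

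Among the activators, PSME2 had values of 109 and 90.7 in CAL-62 THZ1 libraries, against 51.1 and 51.0 with DMSO. In BCPAP it had 113 and 147 after THZ1, against 94.0 and 97.8 with DMSO. Both THZ1 libraries lay above both DMSO libraries in each line. The change was 0.95 in CAL-62 (SE 0.21, limma adjusted p = 0.0468) and 0.42 in BCPAP (SE 0.21, limma adjusted p = 0.932). PSME1, its partner in the same activator ring, had a change of 0.86 in CAL-62 and the inhibitor PSMF1 one of 0.62, both with separated groups. PSME3 and PSME4, the nuclear activators PA28 gamma and PA200, had changes of 0.18 and 0.21 in CAL-62, with overlapping groups.

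In BCPAP no member was called by limma on log2 values, and no gene of the 11743 tested (0%) was called either. An unadjusted p under 0.05 was reached by none of the 46 members and by 471 genes (4.01%). The smallest limma adjusted p of a member was 0.932. The limma-voom fit on recovered reads, run on 10653 genes listed in both lines, also called none. The change was positive in 41 of 46 members and lay between -0.39 and 0.45, with a median of 0.30 over members and of 0.067 over all genes tested. Of all genes tested, 58.6% had a positive change. With a filter at a mean of 5, the median change over all genes was 0.12. Both THZ1 libraries lay above both DMSO libraries in 19 members, which held for 21.9% of all genes, and below in 1, which held for 16.4%. By role the medians were 0.36 in the alpha ring, 0.32 in the constitutive beta ring, 0.31 in the ATPase ring and 0.24 in the lid. They were 0.34 in the 3 further base subunits and 0.33 in the activators and inhibitor. Both of these lay above the constitutive beta ring, unlike in CAL-62.

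In BCPAP the members' changes were larger between the libraries numbered 2. The difference between the libraries numbered 1 had a median of 0.11 over the members, with 33 positive, and that between the libraries numbered 2 had a median of 0.43, with 44 positive. In CAL-62 the corresponding medians were 0.59 and 0.67, with 40 and 44 positive. Over all genes tested, the medians for numbers 1 and 2 were 0.040 and 0.077 in BCPAP and 0.060 and 0.068 in CAL-62. Leaving out 1 library at a time, the median over members ran from 0.10 to 0.44 in BCPAP and from 0.58 to 0.67 in CAL-62.

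**Figure D4:**
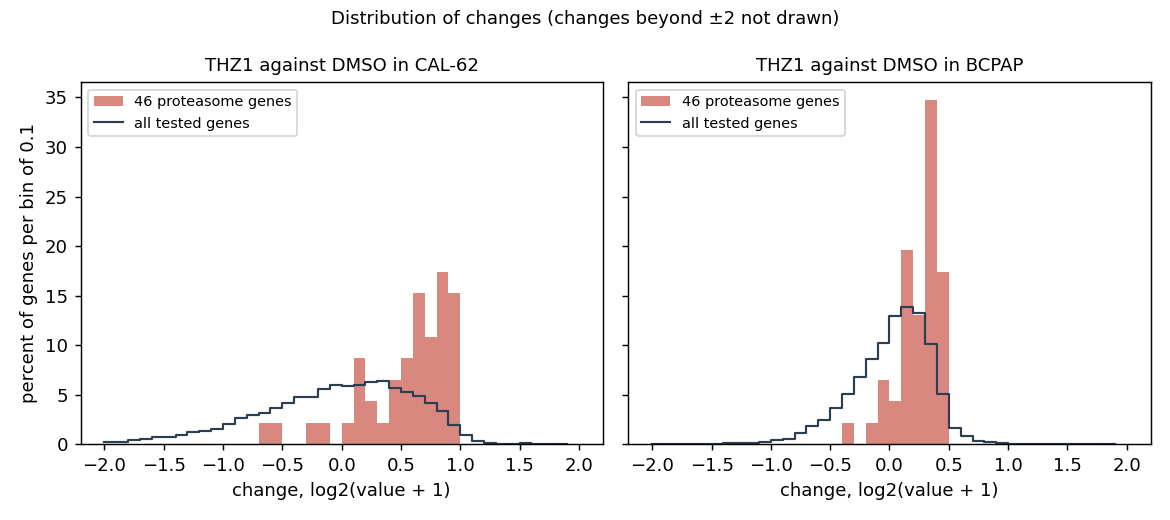
Share of genes, in percent, in each bin of 0.1 of the change after THZ1 in log2(value + 1), for the 46 proteasome genes (bars) and all genes tested (line), in CAL-62 (left) and BCPAP (right). The bars lie mostly right of the line's centre, with medians of 0.63 against 0.031 in CAL-62 and 0.30 against 0.067 in BCPAP.

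The difference of the responses, CAL-62 minus BCPAP, was called in no member and in none of 10653 genes (0%). An unadjusted p under 0.05 was reached by none of the members and by 562 genes (5.28%), and limma-voom on recovered reads called none either. The difference was positive in 39 of the 46 members and in 49.2% of all genes tested. Its median was 0.41 over members and -0.010 over all genes tested. With ribosomal protein or mitochondrially encoded genes as the reference, the median over members was -0.31 or -0.25. Under those references the median of all genes was -0.64 and -0.56, so the median member stood 0.32 and 0.31 above it, against 0.42 in the scaling as deposited. For PSMB1 it was 0.63, with a 95% interval from -0.061 to 1.32, and for POMP it was 0.58, from -0.11 to 1.27. For PSME2 it was 0.53, from -0.15 to 1.21. The 2 lines were thus not shown to differ in their response, and the intervals reach above 1 on the log2 scale.

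Members with a higher value under DMSO tended to have a larger change. Spearman's rho between the change and the DMSO level was 0.67 over the 46 members in CAL-62 and 0.46 in BCPAP, against 0.38 and 0.26 over all genes tested. The level and the change share the DMSO libraries. Against gene length rho was -0.31 and -0.02 over the members, and -0.20 and -0.005 over all genes. The members' changes in the 2 lines, which share no library, had a rho of 0.69. That rho was not computed over all genes, so whether it is particular to the members is not known. In both lines the change also went with the DMSO level over all genes, as given above.

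Under DMSO 7 of the 46 members were called different between the lines, 2 higher and 5 lower in CAL-62 than in BCPAP. Over all genes listed in both lines, 1602 of 10652 (15%) were called, 738 (6.93%) higher and 864 (8.11%) lower in CAL-62. The share of members called was thus close to that of all genes. The median difference was 0.0025 over members and 0.016 over all genes. For this comparison the libraries of both lines were first brought to a common median-of-ratios scale, since the tables of the lines may have been scaled apart. Values are printed as deposited, and the common factors of the DMSO libraries lay between 0.991 and 1.02.

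The ATPase PSMC1 had the largest difference, with 48.8 and 42.0 in CAL-62 DMSO libraries, against 123 in each BCPAP DMSO library (difference -1.41, SE 0.18, limma adjusted p = 0.00352). PSMC5, another ATPase of the ring, had 68.5 and 64.2 in CAL-62, against 143 and 159 in BCPAP (difference -1.17, SE 0.23, limma adjusted p = 0.0158). PSMC1 and PSMC5 thus lay lower in CAL-62 in every library, while the other 4 ATPases were not called. PSME2 had 51.1 and 51.0 in CAL-62, against 94.0 and 97.8 in BCPAP (difference -0.89, SE 0.20, limma adjusted p = 0.0258). PSMD14 had 41.0 and 48.1 in CAL-62, against 73.4 and 79.3 in BCPAP (difference -0.76, SE 0.20, limma adjusted p = 0.0438). PSMB1 had 95.4 and 95.0 in CAL-62, against 163 in each BCPAP library (difference -0.76, SE 0.21, limma adjusted p = 0.0454). PSME2 and PSMB1 were also called after THZ1 in CAL-62, and both comparisons use the same 2 CAL-62 DMSO libraries. In the other direction PSMD2 had 369 and 401 in CAL-62, against 169 and 192 in BCPAP (difference 1.10, SE 0.23, limma adjusted p = 0.0202). PSMA1 had 103 and 85.1 in CAL-62, against 48.8 and 42.5 in BCPAP (difference 1.04, SE 0.21, limma adjusted p = 0.0177). The count of 7 was 1 without any 1 of the 4 DMSO libraries and 0 with mitochondrially encoded genes as the reference, and with ribosomal protein genes as the reference 6 members were called, all higher in CAL-62. Scaling to the sum of reads called 9 members, 6 higher and 3 lower. Over all genes these scalings called 38 higher and 141 lower with the mitochondrial reference, 1135 higher and 277 lower with the ribosomal reference, and 1047 higher and 746 lower with the sum of reads.

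**Figure D5:**
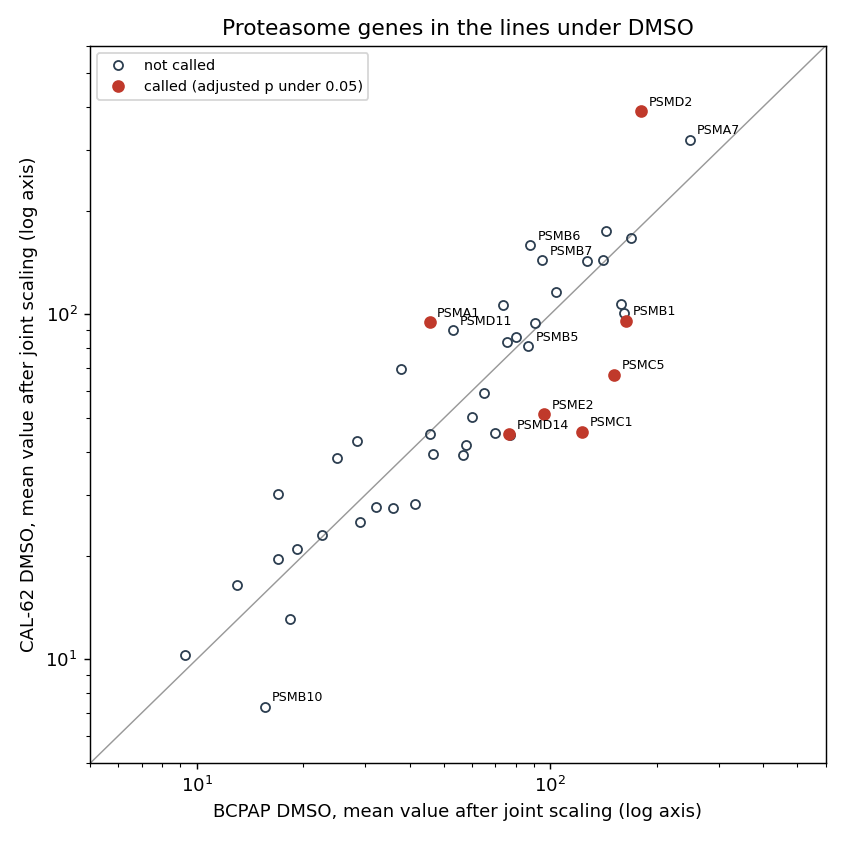
Mean values of the 46 genes in CAL-62 DMSO libraries (vertical log axis) and BCPAP DMSO libraries (horizontal log axis) after joint scaling, n = 2 each, with the diagonal of equal values. Filled red points are the 7 called members; PSMD2 and PSMA1 lie above the diagonal and PSMC1, PSMC5, PSMD14, PSME2 and PSMB1 below it.

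Although each alpha subunit and each beta subunit enters the core in equal number, their values per length differed widely. In the alpha ring the mean lay between 19.9 (PSMA5) and 609.9 (PSMA7) in CAL-62 THZ1 libraries, against 13.0 and 318 for the same genes with DMSO. In BCPAP the 2 genes were again the ends of the ring, at 20.7 and 338 after THZ1 and at 18.4 and 247 with DMSO. PSMB2 was the lowest constitutive beta subunit in all 4 groups, with 51.3 in CAL-62 THZ1 libraries, against 28.2 with DMSO, and 51.7 in BCPAP THZ1 libraries, against 41.4 with DMSO. PSMA5 and PSMB2 also had the longest lengths behind the values in their rings, 3864 and 4846 bases. The lengths recovered from the values belong to an annotation that is not given in the sources used here. RefSeq names pseudogenes for 22 of the 46 members, among them 13 for PSMC1, 6 for PSME2 and 1 for POMP, and reads could be split between these copies. It names an antisense gene for PSMA3, PSMD3, PSMD6 and PSMG3, whose reads cannot be told apart from it without a stated strand setting.

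Genes that work with the proteasome but fall outside the symbol rule were read from lists. Of 18 proteasome partners none was called after THZ1 in either line, with a median change of 0.29 in CAL-62 and 0.26 in BCPAP. ADRM1, the ubiquitin receptor that docks on PSMD2, had 382 and 398.5 in CAL-62 THZ1 libraries, against 213 and 264 with DMSO (change 0.72, SE 0.25, limma adjusted p = 0.109), with separated groups. Of 15 genes of the NRF1 pathway none was called in either line, with medians of -0.038 and 0.25. In CAL-62 their changes ran from -0.86 to 0.93, with 7 positive and 8 negative. The list holds genes of unlike roles, so its median gives no direction for the pathway, and NRF1 protein was not measured. NFE2L1 itself had 52.2 and 68.1 in CAL-62 THZ1 libraries, against 53.2 and 57.3 with DMSO (change 0.11, SE 0.20, limma adjusted p = 0.741), with overlapping groups. Of 22 genes of ubiquitin and its activation none was called, with medians of 0.31 in CAL-62 and 0.15 in BCPAP. The ubiquitin gene UBB had 1718 and 1263 in CAL-62 THZ1 libraries, against 1131 and 883 with DMSO (change 0.56, SE 0.28, limma adjusted p = 0.216), with separated groups. Of the partners of the immunoproteasome, 9 were tested in CAL-62, and IRF1, an interferon-response transcription factor, alone was called. IRF1 had 0.999 and 0.918 in CAL-62 THZ1 libraries, against 3.56 and 5.04 with DMSO (change -1.42, SE 0.24, limma adjusted p = 0.0245). These are low values, and those after THZ1 lie near the pseudocount of 1. In BCPAP it had 5.40 and 4.75 after THZ1, against 4.72 and 5.52 with DMSO (change -0.010, SE 0.24, limma adjusted p = 0.997). Ribosomal protein genes, a reference in the scalings above, had a median change of 0.96 over 76 genes in CAL-62 and of 0.32 in BCPAP, and the 13 mitochondrially encoded genes one of 1.07 and 0.40. Of the 76, 4 were called higher in CAL-62, with changes of 1.10 (RPL38), 1.05 (RPL37), 1.02 (RPL41) and 0.91 (RPS24), and 75 had a positive change.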

How the data were processed

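Poly(A)-selected RNA was sequenced in 8 libraries, 2 in each of 4 groups. The authors' deposited files hold 1 RPKM-type value per gene, that is, reads scaled to gene length and a library total. No header names the unit, which was read off the values. Bowtie2, DESeq2 and hg19 are named, with no role or version, per the submitters' processing notes. Annotation and strand setting: not given in the sources used here. For all 12715 genes a whole length was found at which every value came within 0.02 reads of a whole number, which gave reads per gene. Replicate pairs had a chi-square of 66.9 to 121 per degree of freedom, so no library was counted as a repeat.

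The deposited values were tested with limma (3.58.1, R 4.3.3) on the log2(value + 1) scale, with a mean-variance trend, a mean per group and 1 spread shared by all 8 libraries. Genes needed a mean value of 1 or more. A gene found in 1 line alone was fitted on the 4 libraries of that line. Tests were two-sided, and p-values were adjusted by Benjamini-Hochberg over all genes tested. The fit was tested on simulated counts, and the outcome is not reported here. Same-numbered libraries shared no deviation in that simulation, unlike in these data, so it does not cover such a spread. Alternatives changed the pseudocount, the filter, the scaling, the fit, the replicate block and the libraries included.

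Named with values in every library were called members, catalytic subunits, POMP, and in each line the 4 largest positive and 4 largest negative changes among members averaging 5 or more. From the related lists, genes called after THZ1 and NFE2L1, ADRM1 and UBB were named, and the others of that rule are not reported here. The members and the lists were chosen with earlier results of these data known. PSMD8 and the role examples were named from their values. A planned comparison of PSMB8 and PSMB9 with their constitutive counterparts and a display of protein sequences are not analysed here.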

Additional observations from a re-analysis of the deposited data

How the results depend on the processing

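The median change over the proteasome genes in CAL-62 was 0.21 with the sum of reads, -0.30 with ribosomal protein genes and -0.39 with mitochondrially encoded genes as the reference, and 0.58 to 0.67 with 1 library left out. In BCPAP it was 0.064 and -0.092 with those references. For the difference of the responses it was -0.31 and -0.25. For the lines under DMSO it was -0.34 with the mitochondrial reference, -0.0054 as deposited and -0.068 to 0.0025 with 1 library left out, and relative to all genes it was 0.027 with the ribosomal reference. Of the 10 groups by role, 9 had a positive median in CAL-62, against 0 with either reference. Each reference shifts all genes of a library by the same factor.

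The 3 members called in CAL-62 became 0 with a filter at a mean of 5, with the sum of reads, with the mitochondrial reference and with the 4 libraries alone, 1 with median-of-ratios scaling (PSME2), 6 with limma-voom, and 0 to 11 with 1 library left out. All genes called in CAL-62 numbered 525 against 196, 1506, 3322 and 0 with the filter at 5, the sum of reads, the ribosomal reference and the line alone, and 0 to 833 with 1 library left out. The 7 members called between the lines became 0 with the mitochondrial reference and 1 to 10 with 1 library left out, and all genes called between the lines numbered 1602 against 179 and 274 to 2026. In BCPAP and for the difference of the responses, 0 members were called under every alternative run, and at most 2 and 1 genes in all.

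Values of named genes turned sign as follows. With the ribosomal reference, CAL-62 changes were -0.010 (POMP), -0.12 (PSMA1), -0.022 (PSMB1), -0.29 (PSMB10), -0.37 (PSMB5), -0.021 (PSMB6), -0.054 (PSMB7), -0.51 (PSMD14), -0.035 (PSMD2), -0.0095 (PSME2) and -0.93 (PSMG2). With the mitochondrial reference they were -0.10 (POMP), -0.21 (PSMA1), -0.11 (PSMB1), -0.37 (PSMB10), -0.46 (PSMB5), -0.11 (PSMB6), -0.15 (PSMB7), -0.60 (PSMD14), -0.13 (PSMD2), -0.10 (PSME2) and -1.01 (PSMG2). In BCPAP they were -0.17 (PSMB10), -0.12 (PSMB5) and -0.064 (PSMG4) with the ribosomal and -0.025 (POMP), -0.085 (PSMB1), -0.31 (PSMB10), -0.27 (PSMB5), -0.055 (PSMB6) and -0.21 (PSMG4) with the mitochondrial reference. The differences of the responses were -0.14 (POMP), -0.094 (PSMB1) and -0.19 (PSME2) with the ribosomal and -0.075 (POMP), -0.028 (PSMB1) and -0.13 (PSME2) with the mitochondrial reference. With the sum of reads, PSMG2 was -0.41 in CAL-62, and BCPAP changes were -0.12 (PSMB10), -0.061 (PSMB5) and -0.0076 (PSMG4). With median-of-ratios scaling PSMG2 was -0.022 in CAL-62. With 1 library left out, CAL-62 changes ran over -0.25 to 0.26 (PSMG2), -0.61 to 0.38 (PSMG4) and -0.51 to 0.094 (PSMC3IP). BCPAP changes ran over -0.47 to 0.58 (PSMB10), -0.57 to 0.24 (PSMD5), -0.14 to 0.015 (PSMG2), -0.36 to 0.69 (PSMG4), -0.20 to 0.094 (PSMC3IP), -0.076 to 0.32 (PSMB5) and -0.047 to 0.73 (PSMB6). Beyond each alternative's own construction, the cause of these moves was not tested.

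With the replicate number as a block within each line, 35 members were called in CAL-62, 33 higher and 2 lower, and 4563 genes in all, 2503 (22%) higher and 2060 (18.1%) lower. Between the lines under DMSO the block gave 17 of 46 members, 9 higher and 8 lower in CAL-62. Over all genes it gave 2914 of 10652, 1412 higher and 1502 lower. The block changed no count of members in BCPAP or for the difference of the responses. Deviations of same-numbered libraries correlated with r = 0.78 in BCPAP and 0.46 in CAL-62 over 10698 genes, and 0.91 and 0.74 over the members. The labels do not say what a number marks and each line has 2 pairs, so what same-numbered libraries share is not known. With a library left out, the lone one is taken to vary like the other groups. With 2 libraries a group, the spread between libraries limits the precision. Every member had at least 129 reads in every library, and the part of counting error in that spread was not tested.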
